A study of Mus musculus with 9 samples.

Results

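Mouse fibroblasts given ultraviolet A (UVA) light alone were compared with control fibroblasts across all expressed genes. The treatment labels name no other agent in either group. The members are the 3 control and 3 UVA libraries of the series, 6 of 9 in all, and 14151 of 56691 genes in the deposited table had enough counts to be tested. Every library came from NIH/3T3, a line of mouse embryonic fibroblasts grown in DMEM with fetal bovine serum, with the genotype given as WT. The UVA libraries carry the treatment label UVA at 10 J/cm2, although their titles read MOCK, and the control libraries have a blank treatment label. The remaining libraries, from cells given alpha-arbutin with UVA, entered only the estimate of the spread between replicates. The sources used here do not give the time from UVA to harvest, whether controls were sham-irradiated, or whether the libraries of a group are separate cultures. The p-values therefore measure the spread between these libraries, which may be technical.

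UVA is the long-wave part of solar ultraviolet light and reaches the dermis, where fibroblasts build and renew the connective tissue. It is absorbed by cellular chromophores and photosensitisers, and the reactive oxygen species that follow oxidise lipids, proteins and nucleic acids. Dermal fibroblasts are known for secreting collagens and other matrix proteins, for adhesion to that matrix, and for signals exchanged with the cells around them.

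In units of 1e6, the libraries held 16.3 to 20.86 counts each. Libraries of 1 group differed by more than sampling noise, so none was a mere copy of another. Libraries prepared separately from 1 culture could differ in this way too and are not excluded. Over 9123 genes with at least 10 counts per 1e6 counts (CPM), the log2 ratio of a pair of libraries had an SD of 0.111 to 0.121 between controls and 0.134 to 0.146 between UVA libraries. The SD was 0.257 to 0.312 between the groups, highest in the pairs with UVA replicate 3. The first principal component of the 6 libraries, with 47.7% of the variance, placed the controls at -25.26 to -23.56 and the UVA libraries at 20.24, 22.74 and 29.62. On the second, with 14.3%, UVA replicate 2 stood at 26.35, apart from the other UVA libraries at -11.88 and -12.98.

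The fibroblast label held against its markers. Together the 11 listed markers held 12580 ± 187 CPM in the controls and 9179 ± 140 CPM after UVA (SD, n = 3), and none was at 0 in every library. Of the 10 tested, 7 fell and Vim rose, while S100a4 and Dcn were not called. Markers of other cell types were low: the immune list held 9.45 and 8.76 CPM in control and UVA cells, the endothelial list to 5.77 and 5.69, the muscle list to 2.41 and 2.67, the epithelial list to 1.92 and 3.10, and the neural list to 1.37 and 1.36. The adipocyte list went from 32.7 to 15.5 CPM, nearly all of it Lpl, lipoprotein lipase. The bone and cartilage list went from 915.6 to 1127 CPM, nearly all of it Spp1, the secreted phosphoprotein osteopontin. In bulk RNA, fewer cells of a type and less RNA per cell cannot be told apart.

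UVA cells differed from controls in a large share of the genes, mostly by small amounts. edgeR's quasi-likelihood test called 4142 of 14151 genes (29.3%) at a Benjamini-Hochberg adjusted p below 0.05, with 2078 higher (14.7%) and 2064 lower (14.6%) in UVA cells. Of the genes called higher, 1649 had a log2 fold change under 0.5, 264 lay between 0.5 and 1, 133 between 1 and 2, and 32 at 2 or over. Among those called lower the counts were 1418, 423, 189 and 34. The median size was 0.277 for increases and 0.34 for decreases. In a test against a 1.5-fold change rather than no change, 101 genes were higher (0.714%) and 148 lower (1.05%), 249 in all (1.76%). Without UVA replicate 3 the decreases beyond 1.5-fold numbered 96, and with DESeq2 the increases were 66 and the decreases 82. The CPM of the 3 UVA libraries lay wholly above or below that of the controls in 5937 genes (42.0%). With levels per length scaled to the same sum in each library (TPM) and tested with limma, there were 1182 higher and 2287 lower, so that 34.1% of the called genes were higher against 50.2% in the count test.

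**Figure D1:**
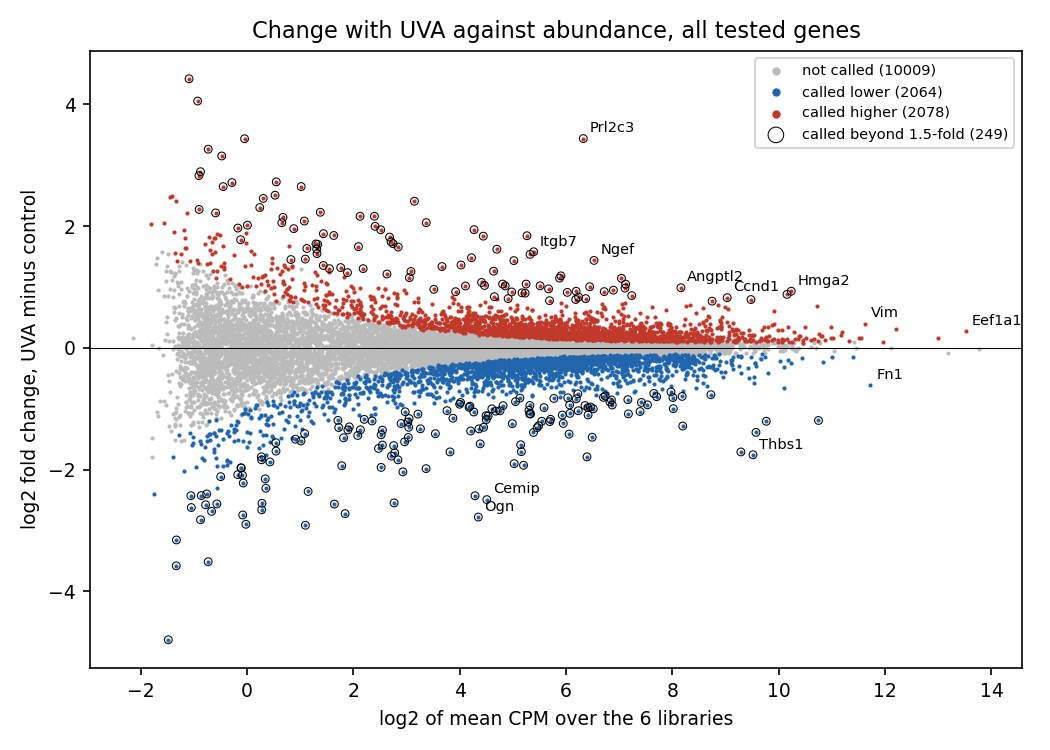
Each point is a tested gene, with the log2 of its mean CPM over the 6 libraries on the horizontal axis and its log2 fold change, UVA minus control, on the vertical axis. Red and blue points are the 2078 genes called higher and the 2064 called lower, rings mark the 249 called beyond 1.5-fold, and most coloured points lie close to 0.

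The fit also bounds how little many genes moved. The 95% interval of the fold change lay within 1.2-fold of no change for 4491 genes, of which 4018 were not called. These are 40.1% of the 10009 uncalled genes, and for the others the interval reached past that size, so that such a change is not excluded. The remaining 473 of the 4491 genes were called although their whole interval lay within 1.2-fold. The share of genes called rose with abundance, from 8.36% of genes under 1 CPM to 62.1% of the 87 most abundant genes. Of these 87 genes 43 were higher and 11 lower, a lean to increases that the less abundant classes did not have to this degree.

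The 12 largest increases and 12 largest decreases were taken among called genes with a mean of at least 10 CPM whose groups did not overlap. None of these 24 genes lost its call when any 1 library was left out. Several of the increases encode surface receptors and signalling proteins that are best known outside fibroblasts. Itgb7, the beta chain of integrins that guide lymphocytes to the gut, had 21.8, 19.6 and 21.6 CPM in the controls and 54.9, 64.2 and 69.4 CPM in the UVA libraries. Its lowest UVA value was well above its highest control value, and the log2 fold change was 1.58 ± 0.08 (SE; edgeR adjusted p = 2.38e-15).

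Selp, P-selectin, an adhesion receptor of platelets and endothelium, had 3.37, 4.71 and 4.02 CPM in control and 12.3, 11.8 and 25.8 CPM in UVA libraries. UVA replicate 3 held about as much as the other 2 together, and the log2 fold change of 2.06 ± 0.24 (edgeR adjusted p = 9.19e-08) was 1.58 at its lowest when a library was left out. Fyb, an adapter of T-cell and platelet integrin signalling, rose by 1.48 ± 0.12. Fyb shares its position with the predicted gene Gm7666 on the same strand, whose log2 fold change was 0.16, and reads there may be split between them. Ptprc, the pan-leukocyte surface phosphatase, stood at 0.953 CPM in the controls and 0.136 CPM after UVA. Of the 4 tested immune markers 1 rose and 2 fell, and 2 of the 8 listed were at 0 in all 6 libraries.

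Inpp4b, a phosphatase of membrane phosphoinositides, had 18.6, 16.2 and 15.7 CPM in control and 61.3, 49.9 and 68.9 CPM in UVA libraries. The groups were far apart, with a log2 fold change of 1.84 ± 0.10 (edgeR adjusted p = 3.38e-14). Ngef, an exchange factor that links Eph receptors to small GTPases, went from 47.3, 51.9 and 49.9 CPM to 115, 132 and 157 CPM. This was a log2 fold change of 1.44 ± 0.08 with no overlap. Cck, the peptide hormone cholecystokinin of gut and brain, had 11.4, 8.02 and 9.19 CPM against 27.9, 33.3 and 40.7 CPM, a log2 fold change of 1.84 ± 0.12. The others were Megf10, an engulfment receptor, at 1.94, Plxna4, a semaphorin receptor, at 1.62, and Tnfrsf23, a decoy receptor for the death ligand TRAIL, at 1.54. Fxyd5, a regulator of the sodium pump, stood at 1.43 and Nfatc1, a calcineurin-regulated transcription factor, at 1.36. Prl2c3, a secreted proliferin of the prolactin family, headed the list at 3.44 ± 0.11, with 10.7, 14.8 and 14.9 CPM in control and 134, 126 and 180 CPM in UVA libraries. It has near-identical copies, so its count is uncertain; Prl2c2, a copy counted separately, rose from 803 to 1478 CPM, a log2 fold change of 0.88.

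The largest decreases were mostly of secreted and matrix proteins. Cemip, which takes part in breaking down hyaluronan, had 36.9, 39.2 and 39.8 CPM in control and 6.97, 8.22 and 5.60 CPM in UVA libraries. The groups were far apart, and the log2 fold change was -2.49 ± 0.11 (edgeR adjusted p = 1.92e-16). Svep1, a large adhesive matrix protein, had 129, 131 and 131 CPM in control and 48.6, 36.7 and 28.2 CPM in UVA libraries, a log2 fold change of -1.79 ± 0.11. Thbs1, thrombospondin 1, a matrix protein that binds cells and activates latent TGF-beta, had 1129, 1161 and 1098 CPM against 416, 376 and 215 CPM, a log2 fold change of -1.75 ± 0.13. The controls were tight for Svep1 and Thbs1, and UVA replicate 3 was the lowest library for both.

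Ptx3, a secreted pentraxin of innate immunity, had 56.2, 51.6 and 56.0 CPM in control and 18.99, 19.95 and 11.8 CPM in UVA libraries, a log2 fold change of -1.70 ± 0.12. UVA replicate 3 was again the lowest. Adgrf1, an adhesion G protein-coupled receptor, fell from 17.7, 15.9 and 15.8 CPM to 4.65, 3.71 and 4.10 CPM, and Hlf, a PAR-domain transcription factor, from 58.6, 41.1 and 54.2 CPM to 16.2, 13.7 and 11.51 CPM. Their log2 fold changes were -1.98 ± 0.13 and -1.90 ± 0.13. Ogn, the proteoglycan osteoglycin, stood lowest at -2.78 ± 0.15; it overlaps Cenpp, at -0.50, on the opposite strand. The remaining decreases were Acta2, smooth muscle actin, at -2.43, Adamts2, a procollagen-processing protease, at -1.93, Ablim1, an actin-binding LIM protein, at -1.71, Col1a1 at -1.71 and Col12a1, a collagen of fibril surfaces, at -1.59.

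**Figure D2:**
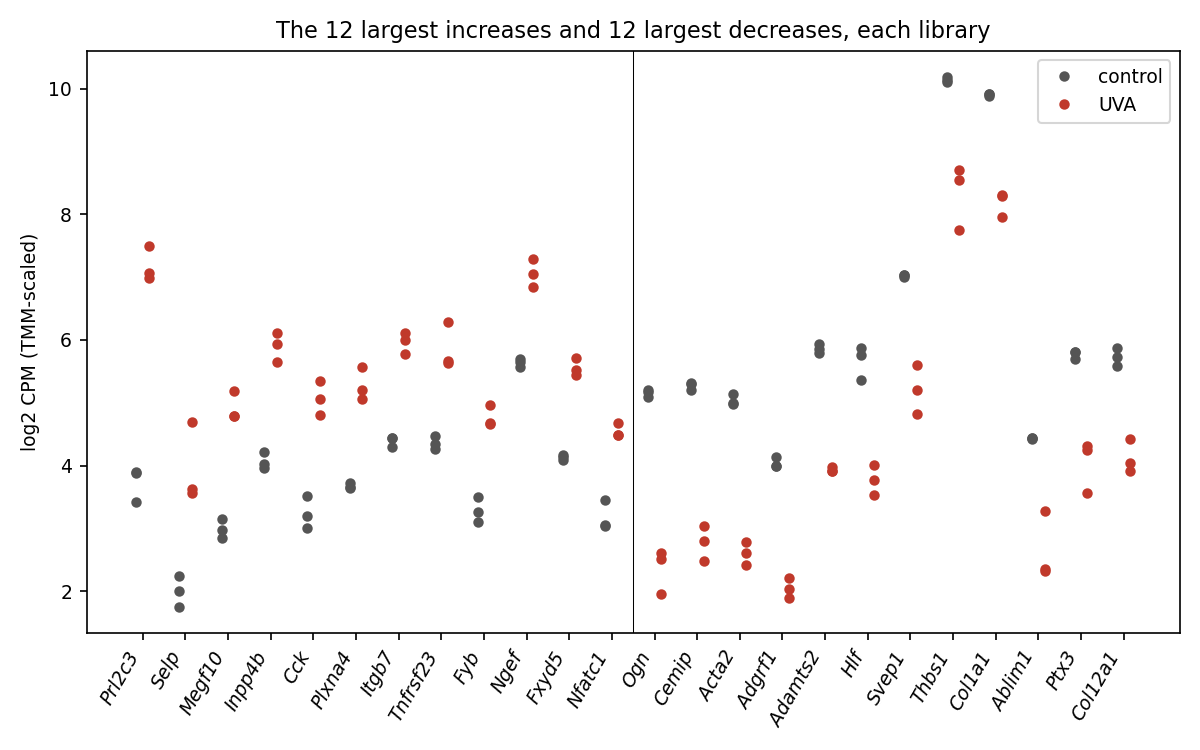
Each point is the log2 CPM of a library, grey for control and red for UVA, for the 12 largest increases on the left and the 12 largest decreases on the right. The groups do not overlap in any of the 24 genes, which their choice required, and Selp shows 1 UVA library, at 25.8 CPM, well above the other 2.

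Measured by the reads that changed hands rather than by fold, other genes stood out. In TMM-scaled CPM, called genes gained the equal of 5.15% of all counts and lost 4.21%. Of the gain 50% came from 134 genes, and of the loss 50% from 165. By UVA library the gain was 4.80%, 4.94% and 5.71% of counts and the loss 3.84%, 4.06% and 4.73%, largest in replicate 3 for both. To turn a control library into another, 1.9 to 2.21% of the counts had to move, against 2.66 to 3.02% between UVA libraries and 5.72 to 6.92% between groups. The TMM factors were 0.992 to 0.998 in UVA and 1.002 to 1.007 in control libraries. Scaled totals are therefore slightly higher in UVA libraries, and gain and loss need not be equal. CPM is not corrected for gene length, so these are approximate shares of reads and not of molecules.

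Among the 10 largest gains in CPM was Eef1a1, the translation elongation factor that brings aminoacyl-tRNA to the ribosome. It had 10501, 10705 and 10677 CPM in control and 12688, 12716 and 13146 CPM in UVA libraries. These groups were apart although the log2 fold change was only 0.27 ± 0.03, and its call ended under quantile normalisation (limma adjusted p = 0.102). Hmga2, an architectural chromatin protein of proliferating mesenchymal cells, had 828, 845 and 815 CPM in control and 1537, 1529 and 1679 CPM in UVA libraries. This was a log2 fold change of 0.93 ± 0.04 (edgeR adjusted p = 1.92e-16). Emp1, a tetraspan membrane protein, went from 1295 ± 7.80 to 2094 ± 127 CPM (SD, n = 3), or 0.69 ± 0.04 as a log2 fold change. Vim, the intermediate filament vimentin, went from 2721 to 3590 CPM, Myof, myoferlin of membrane repair, had a log2 fold change of 0.60, and Ahnak, a giant scaffold protein, one of 0.25. The mitochondrially encoded mt-Cytb and mt-Nd1, the lysosomal protease Ctsl and Prl2c2 completed the 10. Of the 17 tested genes of the mitochondrial genome, 8 rose and none fell. The call of mt-Nd1, at 0.16, was lost with quantile normalisation (limma adjusted p = 0.19), on FPKM (0.125) and on TPM (0.174).

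Among the 10 largest losses were Fn1, fibronectin, from 4084 ± 86.4 to 2683 ± 134 CPM (SD, n = 3), Thbs1, the collagen genes Col1a2, Col3a1 and Col1a1, and the crosslinking enzyme Lox at a log2 fold change of -1.20. Bgn, the proteoglycan biglycan, at -0.65 and Efemp1, a fibulin of elastic tissue, at -0.58 belonged to the same group of matrix genes. The other two were Lgals1, the carbohydrate-binding galectin 1, at -0.23, and Scd2, a fatty acid desaturase, at -0.15. No called gene was at 0 counts in every library of 1 group.

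By the Gene Ontology terms in the deposited table, decreases gathered among genes of the extracellular matrix and increases among genes of the ribosome. The shares over all tested genes, for reading these counts, are 14.7% higher and 14.6% lower. Of 135 tested genes with a matrix term, 60 were lower and 21 higher (median log2 fold change -0.20, against 0.003 over all tested genes), and 21 of the 148 decreases beyond 1.5-fold carried one. With TPM 13 were higher and 60 lower. Of 269 protein-coding genes with a ribosome term 96 were higher and 2 lower, none beyond 1.5-fold (median 0.101). A further 271 genes with such a term are pseudogenes, whose reads can be shared with their parent genes, and 17 of them were higher and 5 lower. Over all 541 genes with the term the counts were 113 higher and 7 lower (median 0.108), and 56 and 11 (median 0.056) with TPM. Over all tested genes TPM gave 1182 higher and 2287 lower with a median of -0.045, so the ribosome median stayed above that of all genes. Nucleolar genes were higher in 186 and lower in 79 of 875 cases. Of 297 genes with a cell cycle term 42 were higher (14.1%) and 52 lower (17.5%), and of 243 with a DNA repair term 36 were higher (14.8%) and 24 lower (9.88%); these shares are near those over all genes, save for the fewer decreases among repair genes. Chromosome medians ran from -0.03 to 0.036 on the autosomes and X, and of 1061 long noncoding genes 89 were higher (8.39%) and 59 lower (5.56%), both below the shares over all genes. These classes are descriptions without a test. They were not matched for abundance, with which the share of genes called rose.

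The start regions of the genes were searched for short motifs. RefSeq windows on GRCm38.p6, from 250 bases before to 50 after the first listed start, were matched by symbol for 9807 of 13969 tested genes with a unique symbol. The letters TGANTCA, which read the same on both strands apart from the middle base, stood in 5.14% of all windows. They stood in 5.77% of windows of genes called higher, 4.11% of those called lower, 17.8% (13 of 73) of those beyond 1.5-fold higher and 9.65% (11 of 114) of those beyond 1.5-fold lower. Windows with fewer than 5 CpG pairs were 8.01% of all, 23.3% among genes beyond 1.5-fold higher and 25.4% among genes beyond 1.5-fold lower. TGANTCA was itself more frequent where CpG was scarce: it stood in 12.8% of all windows with fewer than 10 CpG and in 3.49% of the rest. Within windows of fewer than 10 CpG it stood in 27.5% (11 of 40) of those beyond 1.5-fold higher and in 14% (8 of 57) of those beyond 1.5-fold lower. In the remaining windows the shares were 6.06% (2 of 33) and 5.26% (3 of 57). Other motifs differed between the sets too. CCGGAAGT stood in 8.75% of all windows, 9.6% of those called higher and 5.19% of those called lower. CACGTG stood in 10.2% of all, 13.3% of those called higher and 8.16% of those called lower. TGANTCA was 1 of 14 motifs counted in 6 gene sets and was singled out after the shares were seen, as was the division by CpG. None of these shares is a test. A match is a description of the letters and not a binding site.

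Windows with these letters are shown for the 4 largest increases and 2 largest decreases beyond 1.5-fold with at least 10 CPM whose match lay in the 250 bases before the start, passing over chromosomes 8 and 18, to let the match and its surroundings be seen. Each is the 250 bases before the RefSeq start, read in the direction of the gene, with TGANTCA in capitals, and the coordinates are on GRCm38.p6 and not on the mm39 build of the deposited table.
Prl2c3 (chr13:12800080-12800329, minus strand): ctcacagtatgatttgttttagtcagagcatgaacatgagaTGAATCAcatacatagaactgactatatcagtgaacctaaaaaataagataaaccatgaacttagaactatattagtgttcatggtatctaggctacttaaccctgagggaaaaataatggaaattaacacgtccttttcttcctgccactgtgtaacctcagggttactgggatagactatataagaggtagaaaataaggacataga
Selp (chr1:164115014-164115263, plus strand): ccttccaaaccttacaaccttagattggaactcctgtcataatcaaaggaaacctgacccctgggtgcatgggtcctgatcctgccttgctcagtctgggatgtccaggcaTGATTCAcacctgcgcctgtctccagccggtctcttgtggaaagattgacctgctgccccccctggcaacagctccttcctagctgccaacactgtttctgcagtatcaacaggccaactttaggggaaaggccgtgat
Klhl21 (chr4:152008641-152008890, plus strand): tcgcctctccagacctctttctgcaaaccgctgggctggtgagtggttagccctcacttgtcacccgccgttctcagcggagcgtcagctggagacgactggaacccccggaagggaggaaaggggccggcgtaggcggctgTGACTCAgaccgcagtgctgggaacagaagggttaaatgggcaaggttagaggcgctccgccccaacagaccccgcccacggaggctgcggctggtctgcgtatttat
Ecm1 (chr3:95739570-95739819, minus strand): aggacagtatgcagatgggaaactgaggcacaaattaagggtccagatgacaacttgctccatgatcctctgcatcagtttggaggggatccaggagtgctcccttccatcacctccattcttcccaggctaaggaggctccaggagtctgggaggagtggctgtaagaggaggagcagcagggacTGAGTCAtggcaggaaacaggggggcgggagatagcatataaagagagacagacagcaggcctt
F3 (chr3:121723287-121723536, plus strand): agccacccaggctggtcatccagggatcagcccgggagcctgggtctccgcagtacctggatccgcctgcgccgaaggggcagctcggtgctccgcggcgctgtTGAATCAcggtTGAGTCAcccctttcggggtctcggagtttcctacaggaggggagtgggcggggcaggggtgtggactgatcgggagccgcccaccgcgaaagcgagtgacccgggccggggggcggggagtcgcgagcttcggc
Capn6 (chrX:143827413-143827662, minus strand): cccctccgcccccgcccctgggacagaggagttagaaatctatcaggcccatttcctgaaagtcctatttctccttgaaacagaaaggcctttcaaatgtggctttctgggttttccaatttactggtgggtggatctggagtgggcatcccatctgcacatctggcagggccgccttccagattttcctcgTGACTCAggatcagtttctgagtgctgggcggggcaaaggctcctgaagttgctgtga
The match began 209 bases before the start in Prl2c3, 139 in Selp, 108 in Klhl21, 64 in Ecm1 and 58 in Capn6. F3 had a pair of matches, 146 and 135 bases before the start. CpG pairs in the 300-base window numbered 2 in Prl2c3, 4 in Selp, 26 in Klhl21, 2 in Ecm1, 32 in F3 and 5 in Capn6, so the letters occurred in both poor and rich windows.

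These 4 further genes were chosen for the motif after their values were seen. Klhl21, an adapter of a ubiquitin ligase, had 37.7, 35.5 and 36.6 CPM in control and 77.2, 76.2 and 95.7 CPM in UVA libraries, a log2 fold change of 1.18 ± 0.08. Ecm1, a secreted glycoprotein of skin matrix, had 13.8, 14.4 and 13.02 CPM against 27.7, 25.3 and 33.5 CPM, a log2 fold change of 1.08 ± 0.10. Both rose without overlap, and UVA replicate 3 was the highest. F3, tissue factor, which starts blood clotting, had 26.1, 34.7 and 32.5 CPM against 12.2, 12.2 and 13.4 CPM, and Capn6, a calpain family member of the cytoskeleton, 49.6, 59.1 and 55.7 CPM against 25.5, 24.9 and 27.1 CPM. Their log2 fold changes were -1.30 ± 0.10 and -1.08 ± 0.09, with the groups apart. That the same letters stood before genes that rose and before genes that fell was fixed by the choice of windows.

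Functional lists were then counted, 45 in all, with 1210 tested genes of which 296 rose and 250 fell. Each count is given beside 14.7% higher, 14.6% lower and a median of 0.003 over all tested genes. A count or median with TPM stands beside 1182 higher, 2287 lower and a median of -0.045 over the same genes. These figures over all genes are not matched for abundance, and the share called rose with it. Of genes under 1 CPM, 3.62% were higher and 4.74% lower. Of the 2308 genes in the class just below the 87 most abundant, 26.4% were higher and 21.3% lower. The part of abundance in the count of each list was not tested. Most signalling lists had a median below 0, but the cytokine list was at 0.108 and the EGF list at 0.021. Of 20 Hedgehog and primary cilium genes 10 fell and none rose (median -0.21), with Gas1, a co-receptor that binds Hedgehog ligands, at 193, 173 and 187 CPM in control and 104, 108 and 95.7 CPM in UVA libraries. Gas1 was lower in every UVA library, with a log2 fold change of -0.85 ± 0.06 (edgeR adjusted p = 2.33e-12). The co-receptor Cdon was at -0.50, and the ciliary transport genes Tulp3 and Bbs1 at -0.25 and -0.54. Of 17 tested Wnt genes 6 fell and none rose (median -0.122), among them the receptors Fzd2 at -0.69, Ryk at -0.48 and Fzd4 at -0.61 and the antagonist Dkk2 at -0.45.

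The insulin-like growth factor axis fell in 9 of 12 genes and rose in 2 (median -0.303). Igf1, the growth factor itself, was low in all cells, with 4.07, 4.10 and 3.21 CPM in control and 0.720, 0.247 and 0.500 CPM in UVA libraries. These rest on 67 to 73 counts in control and 4 to 13 in UVA libraries, and the log2 fold change was -2.91 ± 0.34. Grb10, an adapter that restrains the receptors, was at -0.34, the binding protein gene Igfbp7 at -0.60 and Pappa, a protease that frees IGF from its binding proteins, at -0.92. Igfbp7 overlaps Polr2b on the other strand, which was at -0.03. Igf2, at under 1 CPM in both groups, was the other member past 1.5-fold.

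PDGF, VEGF and angiopoietin-like genes moved both ways, with 6 of 15 higher and 7 lower (median -0.21). Angptl2, a secreted angiopoietin-like protein, had 189, 197 and 189 CPM in control and 358, 356 and 428 CPM in UVA libraries. The groups did not overlap, with a log2 fold change of 0.99 ± 0.05 (edgeR adjusted p = 3.12e-14). Angptl4, an inhibitor of lipoprotein lipase, rose by 1.02, while the PDGF receptors Pdgfra and Pdgfrb were at -0.72 and -0.55. The EGF family had 3 higher and 2 lower of 9, led by the ligand gene Hbegf at 0.92. In the FGF list 1 of 8 rose and 2 fell, the latter Fgf7, a keratinocyte growth factor, at -0.36 and Hgf, hepatocyte growth factor, at -0.35. The Notch list had 2 higher and 3 lower of 12, with the ligand Jag1 at 0.56 and the inhibitor Numbl at -0.49.

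G protein-coupled receptors and their RGS regulators had 11 of 26 lower and 1 higher (median -0.33). The exception was Rgs16, which shortens G protein signals, at 0.73. Receptors for lipid mediators were among those that fell: Ptgfr, for prostaglandin F, at -0.88, Lpar1, for lysophosphatidic acid, at -0.54, and S1pr3, for sphingosine phosphate, at -0.71. Cytokines, chemokines and their receptors split into 8 higher and 10 lower of 29. Osmr, the oncostatin M receptor, had 47.4, 44.3 and 42.4 CPM in control and 19.4, 18.2 and 19.01 CPM in UVA libraries, each group tight and apart from the other, with a log2 fold change of -1.24 ± 0.08. Il6st, the signal chain that Osmr shares with other cytokine receptors, was at -0.36 and Csf1, the macrophage growth factor, at -0.63, whereas Tnfrsf12a, the TWEAK receptor, was at 0.66. Among 35 semaphorin, plexin, ephrin, Eph, netrin, netrin receptor and Slit genes 11 fell and 5 rose. Sema3f was at -0.72, Plxna1 at -0.38, the netrin receptor gene Unc5b at 0.52 and Epha2 at 0.23. Only 6 of the 35 fell without control replicate 2.

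Adhesion genes changed in both directions by class. Integrin subunits were higher in 5 and lower in 2 of 12 (median 0.072). Besides Itgb7, the laminin-binding chain Itga6 was at 0.29 and the fibronectin-binding chain Itga5 at 0.24, while Itgav, of vitronectin receptors, was at -0.20. Cadherins and protocadherins had 4 higher and 2 lower of 21, with Pcdh7 at 0.74, Cdh2 at 0.26 and Pcdh18 at -0.44. Focal adhesion and caveola proteins had 9 lower and 3 higher of 29, with Ehd2, an ATPase at the neck of caveolae, at -0.53, Tns2, a tensin, at -0.77, Zyx, zyxin, at -0.45 and Actn4, alpha-actinin 4, at 0.36.

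Small leucine-rich proteoglycans and hyaluronan genes had the lowest median of the 45 lists, -0.336, with 7 of 16 lower and 3 higher. Cemip and Ogn headed it, Bgn was at -0.65, and the hyaluronan receptor Cd44 rose by 0.39. Among syndecans, glypicans and heparan sulphate enzymes 6 of 17 fell and 4 rose, with Hspg2, perlecan, at -0.49, the epimerase Glce at -0.62 and the sulphotransferase Ndst2 at 0.38. S100 proteins and annexins, which bind calcium and membranes, had 6 higher and 3 lower of 15, with S100a10 at 0.45 and its partner Anxa2 at 0.39 against Anxa6 at -0.55. Cytoskeletal genes had 11 lower and 5 higher of 29, with Vim at 0.40 and Lmna, lamin A, at 0.46 against the microtubule-associated genes Map4 at -0.37 and Map1a at -0.47. Map1a overlaps Ppip5k1, at -0.04, on the other strand.

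Regulators gave few leanings. Homeobox and mesenchymal transcription factors had 7 higher and 9 lower of 38. Sox9, a factor of chondrocytes and skin stem cells, had 133, 137 and 137 CPM in control and 189, 191 and 224 CPM in UVA libraries, a log2 fold change of 0.57 ± 0.05 with the groups apart. Nfix was at -0.34 and Snai2, a repressor of epithelial genes, at -0.44. Nuclear receptors and coregulators had 7 lower and 3 higher of 32, with the retinoid receptor Rarg at -0.37 and the corepressor Nrip1 at 0.42. Without control replicate 3 only 4 fell. Targets of forkhead box O factors, with the factors themselves, were called in 13 of 14 cases but in both directions, 6 higher and 7 lower, such as Trib1 at 0.74 and Ccng2 at -0.55. The Myc network had 2 higher and 1 lower of 10.

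Cyclins, kinases and their inhibitors had 6 higher and 6 lower of 27. Ccnd1, cyclin D1, which drives entry into the cell cycle, had 372, 380 and 381 CPM in control and 644, 638 and 724 CPM in UVA libraries, a log2 fold change of 0.83 ± 0.05 (edgeR adjusted p = 1.13e-13). Cdkn1a, the cell cycle inhibitor p21, was the other member to rise beyond 1.5-fold, at 0.98. In the list of BCL2 family members and death receptors 7 of 25 rose and 3 fell, with Cflar, an inhibitor of death receptor signalling, at 0.52, Bok at 0.84 and the death receptor gene Tnfrsf21 at -0.82. Enzymes that write or erase histone and DNA marks had 13 lower and 4 higher of 55 (median -0.059), with Hdac4 at -0.35, Dnmt3a at -0.30, Sirt1 at 0.52 and Kat2a at 0.24.

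Genes of protein turnover moved by small but even amounts. Proteasome subunits rose in 29 of 36 cases and fell in none, with a median of 0.165. Psmc3, an ATPase of the regulatory particle, had 193, 190 and 188 CPM in control and 224, 226 and 234 CPM in UVA libraries, a log2 fold change of 0.26 ± 0.04 without overlap (edgeR adjusted p = 2.61e-05). Psmc3 overlaps Slc39a13 on the other strand, at 0.13. Psmc4 was at 0.25, Psma7, of the catalytic core, at 0.24, and Psmd2, a scaffold of the regulatory particle, at 0.21. The count dropped to 18 without UVA replicate 3 and to 13 with TPM, with none lower in either case.

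Ribosome biogenesis genes rose in 21 of 36 cases and fell in none (median 0.16). Nhp2, a protein of small nucleolar particles, had 109, 105 and 110 CPM in control and 146, 144 and 148 CPM in UVA libraries, a log2 fold change of 0.44 ± 0.05. The groups were tight and apart; Nhp2 overlaps Rmnd5b, at 0.14, on the other strand. Utp20 and Rrp12, which process ribosomal RNA, were at 0.34 and 0.36, and Dkc1, the pseudouridine synthase, was at 0.34 and overlaps Mpp1, at 0.02, on the other strand. Translation factors had 13 higher and 1 lower of 42, with Eif5 at 0.41 and Eif1, which guides start codon choice, at 0.34. Aminoacyl-tRNA synthetases leaned the other way, with 7 of 20 lower and 4 higher, among them Sars at -0.40, Lars at -0.38, Gars at -0.32 and Eprs at -0.28.

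In the early secretory pathway, the list of COPI and COPII coats and Golgi tethers had 17 of 35 genes lower and none higher (median -0.117). The rest did not pass, and the list also holds the transcription factor genes Creb3l1 and Creb3l2. Creb3l1, a membrane-bound transcription factor of secretory and collagen genes, had 11.2, 9.48 and 10.8 CPM in control and 4.87, 4.26 and 4.15 CPM in UVA libraries, a log2 fold change of -1.24 ± 0.15 (edgeR adjusted p = 1.21e-07). Creb3l2, its relative, was at -0.54, the COPI subunit Copz2 at -0.58 and Sec16b, of COPII exit sites, at -0.83. N-glycosylation genes had 3 higher and 6 lower of 35 and the cytosolic chaperonin 3 higher and none lower of 14. Spliceosome genes had 7 higher and 3 lower of 39, but 2 and 3 were higher in the tests on TPM and FPKM, and 3 without control replicate 2 or 3.

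**Figure D3:**
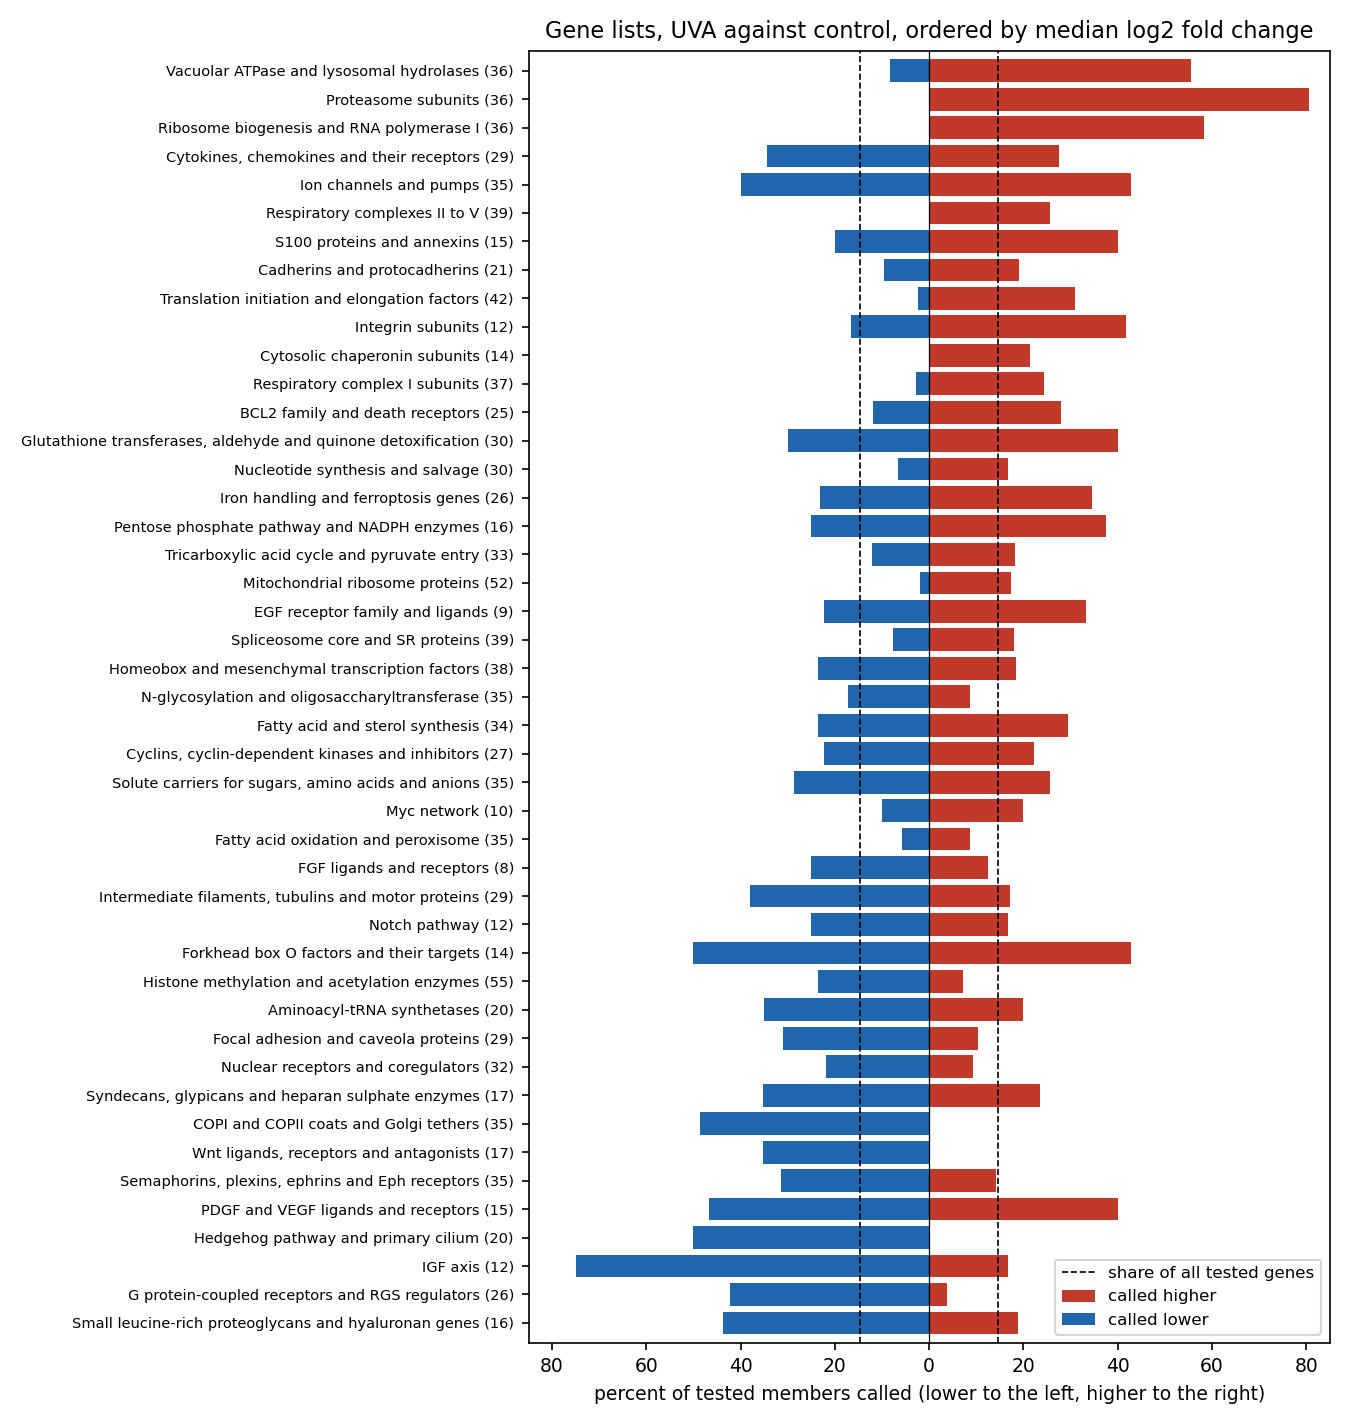
Each bar gives the percent of a list's tested members called higher (red, to the right) or lower (blue, to the left), with the number tested in brackets and lists ordered by their median log2 fold change. The dashed lines mark 14.7% higher and 14.6% lower over all tested genes; proteasome subunits reach furthest to the right and the IGF axis furthest to the left.

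Lysosomal genes had the highest median of the 45 lists, 0.194. Vacuolar ATPase subunits and hydrolases rose in 20 of 36 cases and fell in 3. Ctsd, cathepsin D, had 195, 185 and 192 CPM in control and 239, 248 and 265 CPM in UVA libraries, a log2 fold change of 0.39 ± 0.04 with the groups apart. Hexa, a ganglioside hexosaminidase, was at 0.48 and Atp6ap1, of the proton pump, at 0.38, whereas Lipa, the acid lipase, fell by 0.59 on the log2 scale.

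Mitochondrial lists shifted little. Respiratory complex I had 9 higher and 1 lower of 37, with Ndufs3, which overlaps Kbtbd4 (at 0.12) on the other strand, at 0.32 and Ndufv3 at -0.42. Complexes II to V had 10 higher and none lower of 39, with Sdhb at 0.31 and Cycs, cytochrome c, at 0.29. Only 4 of them rose without control replicate 1 or UVA replicate 2, 5 without control replicate 2, 6 without control or UVA replicate 3, 5 on FPKM and 3 on TPM. Mitochondrial ribosome proteins had 9 higher and 1 lower of 52 (median 0.034, and -0.016 with TPM against -0.045 over all genes). In the tricarboxylic acid cycle list 6 of 33 rose and 4 fell. With TPM 2 rose and 8 fell, where decreases outnumbered increases over all genes too. Its decreases beyond 1.5-fold were Pdk1, a kinase that shuts pyruvate out of the cycle, and Pcx, pyruvate carboxylase. Pdk1 had 77.2, 86.6 and 85.5 CPM in control and 42.5, 37.7 and 36.0 CPM in UVA libraries, apart in every library, with a log2 fold change of -1.10 ± 0.06 (edgeR adjusted p = 1.2e-13). Pcx was at -1.18 and overlaps Lrfn4, at 0.11, on the other strand.

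In fatty acid and sterol synthesis 10 of 34 genes rose and 8 fell. Fasn, fatty acid synthase, had 530, 494 and 540 CPM in control and 889, 868 and 956 CPM in UVA libraries, a log2 fold change of 0.79 ± 0.04 without overlap, and was its member beyond 1.5-fold. Idi1, of the sterol pathway, was at 0.41 and the desaturase Fads2 at -0.20. The count of increases was 5 without control replicate 3, 6 without control replicate 1 or UVA replicate 2, 5 on FPKM and 3 on TPM. The pentose phosphate and NADPH list had 6 higher and 4 lower of 16, with Tkt, transketolase, at 0.28 against Nadk2, a mitochondrial NAD kinase, at -0.73; 3 rose without control replicate 2 or with TPM. Fatty acid oxidation genes were called in 14.3% of 35 cases and nucleotide synthesis genes in 23.3% of 30, below the 29.3% over all genes.

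Detoxification and iron genes were split. Glutathione transferases, aldehyde and quinone enzymes had 12 higher and 9 lower of 30, with Gsto1 at 0.32 and Aldh2 at 0.27 against Aldh1a1, which makes retinoic acid, at -1.84. Only 5 fell with DESeq2 or without control replicate 3, and 7 rose with TPM. Cyp1b1, a cytochrome P450, was at -2.55 but at 2.08 and 0.351 CPM in control and UVA cells. Iron and ferroptosis genes had 9 higher and 6 lower of 26 (median 0.039, and -0.015 with TPM against -0.045 over all genes). The ferrireductase Steap3 was at 0.47 and Chac1, which degrades glutathione, at -0.62.

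Transport genes moved in both directions. Ion channels and pumps were called in 29 of 35 cases, 15 higher and 14 lower. Kcnn4, a calcium-activated potassium channel, had 19.8, 17.3 and 17.8 CPM in control and 33.2, 35.5 and 44.5 CPM in UVA libraries, a log2 fold change of 1.05 ± 0.09. Aqp5, a water channel, was at -0.72, Scn3a, a sodium channel, at -1.60 and Kcnj15, an inward rectifier, at -1.54. Among 35 solute carriers 9 rose and 10 fell. Slc1a3, a glutamate transporter, had 102, 65.3 and 93.2 CPM in control and 42.2, 30.0 and 37.7 CPM in UVA libraries, with a log2 fold change of -1.24 ± 0.11. Its controls were widely spread, with replicate 2 the lowest, yet all lay above the UVA libraries. Slc12a2, the sodium, potassium and chloride cotransporter, was at 0.48 and Slc7a5, a large neutral amino acid transporter, at -0.62.

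Calls also differed with the length of the gene. Of 3042 genes that span under 5 kb from start to end, 326 were higher (10.7%) and 176 lower (5.79%), with a median of 0.048. Both shares are below those over all genes, 14.7% and 14.6%, and the decreases more so. The share called lower climbed in every longer class, and of 95 genes of 500 kb and over 35 were lower (36.8%) and 10 higher (10.5%), with a median of -0.209. By exonic size 99 of 1195 genes under 1 kb were higher (8.28%) and 39 lower (3.26%), and 298 of 2239 genes of 8 kb and over were higher (13.3%) and 542 lower (24.2%). With TPM these counts were 92 and 77 for the short and 116 and 485 for the long genes. Abundance differs between these classes too, and its part was not tested. For the genes that span under 5 kb the excess of increases over decreases depended on the scale: with TPM 235 were higher and 232 lower (median -0.005). Over all tested genes, however, TPM gave 1182 higher and 2287 lower, with a median of -0.045. The median of these short genes thus lay above that of all genes on either scale. For genes of 500 kb and over, 8 were higher and 29 lower with TPM.

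**Figure D4:**
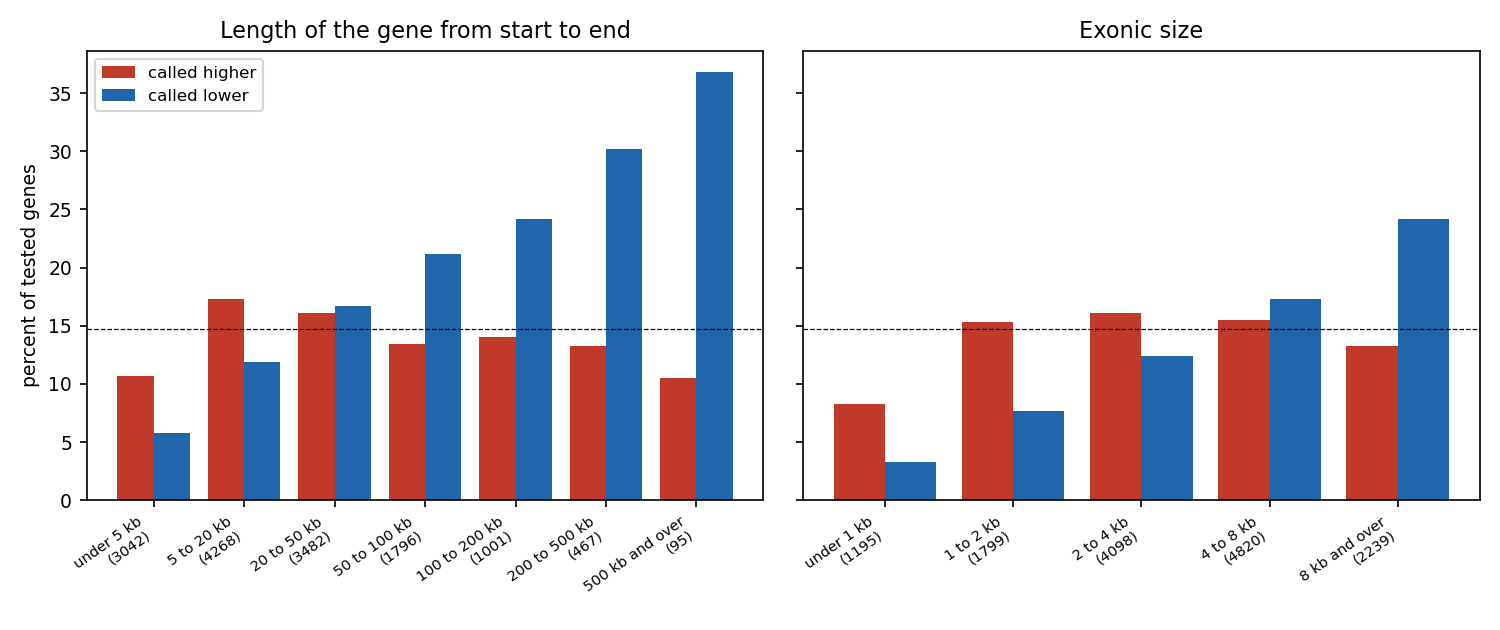
Bars give the percent of tested genes called higher (red) and lower (blue) in classes of gene span from start to end (left) and of exonic size (right), with the number of genes in brackets and a dashed line at the share over all tested genes. Decreases climb from 5.79% of genes under 5 kb to 36.8% of those of 500 kb and over.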

How the data were processed

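RNA of 3 control and 3 UVA libraries was analysed. Per the file headers, the authors deposited raw counts and FPKM values of 56691 genes in each library, with coordinates; each deposited FPKM equals count over exonic size and library total. The submitters' processing notes name HISAT2 2.2.1 and HTSeq 0.6.1, besides cutadapt 1.9.1, bcl2fastq 2.20.0.422 and the build mm39; the strandedness of counting is not given in the sources used here. Columns with the prefix NC were taken as control because the other prefixes match the other titles.

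Genes passing filterByExpr (14151) were tested in R 4.3.3 with edgeR 4.0.16 (TMM, quasi-likelihood, two-sided) on all 9 libraries by group, the contrast being UVA minus control, and again against 1.5-fold. Adjusted p-values are Benjamini-Hochberg over all tested genes, with calls below 0.05. Every adjusted p attributed to edgeR is from this test. CPM values are TMM-scaled, log2 fold changes carry the SE of the fit, and intervals are 95%. limma 3.58.1 and DESeq2 1.42.0 served as alternatives, limma on FPKM and TPM with a pseudocount of 1 on the log2 scale. The fit was also run on counts simulated with its own estimated spread, which cannot show whether that spread suits these data.

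The members and lists were chosen with earlier results of these data known. Named genes are the 12 largest increases and decreases (called, no overlap, at least 10 CPM), the 10 largest gains and losses in CPM, called genes at 0 in 1 group, and up to 4 called members of each list by p; members beyond 1.5-fold are named besides, and further genes only where said. Provisional symbols were passed over, and not every gene under the rule is described; some are not reported here. Gene Ontology, length and abundance classes, promoter windows and the count within 1.2-fold were added as descriptions. Counting error shrinks with abundance but is not negligible near 10 CPM. Itgb8, at 11.4 CPM in control and 11.2 CPM in UVA libraries, had an SE of 0.126 on its log2 fold change. Fold changes of genes under 1 CPM rest on few counts.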

Additional observations from a re-analysis of the deposited data

How the results depend on the processing

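Of 587 named or listed genes that were called, none changed direction under any of the alternatives run, and 54 to 103 lost their call when 1 library was left out, 132 with TPM, 104 with FPKM, 43 without the filter, 32 with DESeq2 and at most 21 with the other settings. Genes called higher ranged from 1569 to 1907 and genes called lower from 1644 to 1932 when 1 library was left out; beyond 1.5-fold the ranges were 72 to 104 and 96 to 135, both lowest without UVA replicate 3. On log2(TPM + 1) with limma 1182 genes were higher, and at an adjusted p below 0.01 1316 were. Beyond 1.5-fold, higher and lower counts were 66 and 82 with DESeq2, 57 and 81 with quantile normalisation, 14 and 37 on log2(FPKM + 1) and 21 and 50 on log2(TPM + 1), where the pseudocount shrinks the change of low genes; the cause of the other shifts was not tested. The median of all genes, 0.003, moved furthest with TPM, to -0.045. The share of promoter windows with TGANTCA is small in number in the sets beyond 1.5-fold, and its split by CpG was chosen after seeing the data.

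With the replicate number as a block, 2180 genes were higher and 2179 lower, and 109 and 159 beyond 1.5-fold. Same-numbered control and UVA libraries correlated at 0.0486, 0.0376 and 0.0548 in their deviations from the group means, none over 0.1. The labels give them only a shared number, and these small values cannot decide whether they are paired. Every library correlated best with its own number, though control replicate 2 reached 0.0294 with UVA replicate 1. Deviations within a group sum to 0, so these correlations are tied together and their order does not settle the pairing.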
